A study of Mus musculus with 6 samples.

Results

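Growth hormone, insulin-like growth factor (IGF) and insulin signaling was examined through 10 genes in whole mouse kidneys after maternal iron deficiency. The genes were chosen by their place in these pathways, with earlier results of these data known: the growth hormone receptor Ghr, the growth factor Igf1, its receptor Igf1r, the binding proteins Igfbp1, Igfbp3, Igfbp4 and Igfbp5, the insulin receptor Insr, and the receptor substrates Irs1 and Irs2. All 10 were found among the 24422 gene symbols of the count tables, and all 10 were among the 15145 genes that passed the filter on low counts. The dams of 3 FeD pups ate food low in iron (2 to 6 ppm) and those of 3 control pups ate food with 220 ppm iron, and all pups were wild type C57BL/6 mice. The labels place every kidney at postnatal day 15 and give no treatment other than the diet, which the dams ate from before mating until the pups were taken. The pups received iron through the dam, and neither the labels nor the methods give the number of litters, so effects of litter and diet cannot be told apart and p-values measure the spread between these kidneys.

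Growth hormone from the pituitary binds its receptor, which signals through the kinase JAK2 and the STAT5 factors and induces Igf1 in many tissues. IGF1 acts on the IGF1 receptor, while binding proteins hold IGF in the extracellular space, prolong its life or keep it from the receptor until proteases cleave them. The insulin and IGF1 receptors share the adaptor proteins IRS1 and IRS2, which pass the signal to PI3 kinase and AKT, and AKT keeps the FOXO transcription factors out of the nucleus. In the kidney this system is known for its part in postnatal growth, filtration and the proximal handling of phosphate and glucose.

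In FeD kidneys the ligand Igf1 fell 4.76-fold while its receptor, the insulin receptor and the growth hormone receptor rose 1.52-fold, 1.62-fold and 1.8-fold. Igfbp1 rose 5.67-fold and Irs2 rose 2.79-fold, whereas Igfbp5 fell 2.45-fold and Igfbp4 fell 1.61-fold. In the edgeR quasi-likelihood fit to all tested genes, 9 of the 10 genes passed a Benjamini-Hochberg adjusted P of 0.05, against 45.7% of all tested genes. Of these, 6 were higher, against 22.4% of all tested genes, and 3 were lower, against 23.3%. With a change of at least 2-fold as a further condition, which 10% of all tested genes met, 4 genes were called. Igfbp1 and Irs2 were called higher (4.34% of all tested genes were) and Igf1 and Igfbp5 were called lower (5.69% of all tested genes were). Levels in FeD kidneys lay wholly above or below those in control kidneys for 9 of the 10 genes, as for 58.1% of all tested genes. The median size of the log2 fold change was 0.77 over the 10 genes and 0.32 over all tested genes. Igfbp3 alone did not pass.

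**Figure D1:**
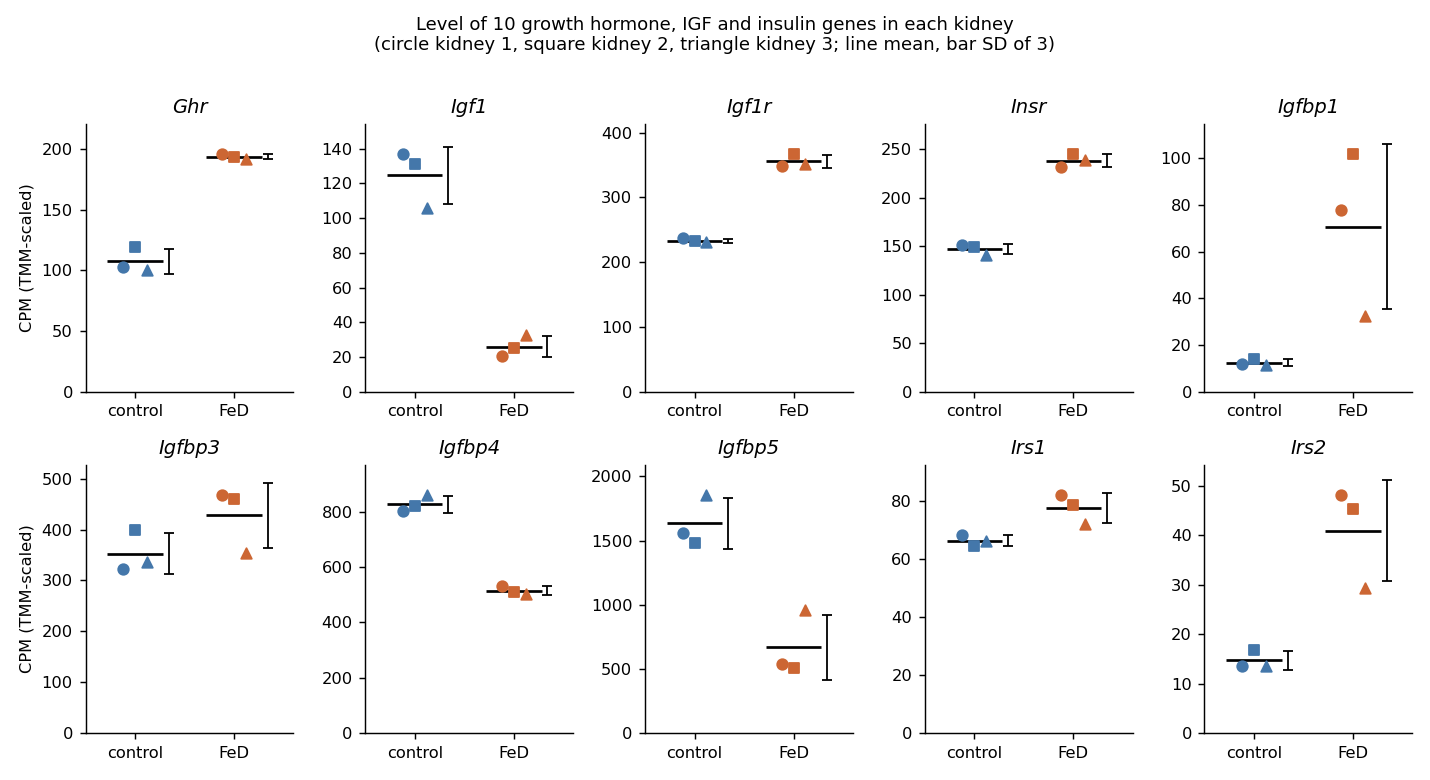
Level of each gene in CPM (counts relative to the library total, scaled by TMM, on linear axes from 0) in 3 control and 3 FeD kidneys, with the mean and SD of 3. The groups are apart in every panel except Igfbp3, and FeD kidney 3 (triangle) lies below the other FeD kidneys in Igfbp1 and Irs2 and above them in Igf1 and Igfbp5.

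Each library held between 13732173 and 20853293 counts. Levels are given as CPM, a gene's counts relative to the library total after TMM scaling, which can be compared between kidneys. Levels of different genes are compared only after division by exon length. Sequenced kidneys differed in ways the labels do not name. Xist, the RNA that coats the inactive X chromosome, stood at 797 to 900 CPM in control kidneys 1 and 2 and FeD kidney 3 and at 1.57 to 2.69 CPM in the other 3 kidneys. The Y-linked gene Ddx3y showed the reverse, at 76.6 to 129 CPM in control kidney 3 and FeD kidneys 1 and 2 and at 0 to 0.681 CPM in the rest. Transcripts of 5 adrenal marker genes summed to 776 CPM in FeD kidney 2 and 71.8 CPM in control kidney 1, against 7.82 to 12.5 CPM in the other kidneys. Values are therefore also given within kidneys of like Xist level and without these adrenal-rich kidneys where that matters. Kidney markers moved with the diet as well: the summed level of 7 proximal tubule markers was 7615 to 8173 CPM in control and 3404 to 3742 CPM in FeD kidneys, with 6 of 7 lower. The 7 endothelial markers summed to 924 to 956 CPM in control and 637 to 834 CPM in FeD kidneys, with 5 lower and 1 higher. The 6 stromal markers summed to 1792 to 1885 CPM in control and 1175 to 1613 CPM in FeD kidneys, with 3 lower and 3 higher. The 3 distal convoluted tubule markers summed to 1219 to 1530 CPM in control and 347 to 545 CPM in FeD kidneys, with 2 lower. The 5 collecting duct markers were the reverse in sum, at 1018 to 1496 CPM in control and 1510 to 2737 CPM in FeD kidneys, with 2 higher and 2 lower. The thick ascending limb and podocyte sums overlapped between groups. The macrophage sum was 99.7 to 103 CPM in control and 86.9 to 95 CPM in FeD kidneys, with 2 markers higher and 2 lower. Csf1r, which was lower, made up most of that sum. In whole kidneys, fewer cells of a type and less RNA per cell cannot be told apart. What part these shifts had in the changes below was not tested.

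Ghr encodes the receptor through which growth hormone acts (mm9, chromosome 15, 3267760 to 3533492, minus strand). Its level was 103, 120 and 100 CPM in control kidneys 1, 2 and 3 and 196, 193 and 192 CPM in FeD kidneys 1, 2 and 3. The lowest FeD kidney lay well above the highest control kidney, and the FeD kidneys were closer to each other than the control kidneys were. Ghr rose by a log2 fold change of 0.85 with an SE of 0.07 (adjusted P = 0.00011), a 1.8-fold rise that stayed under the 2-fold threshold. Leaving out each kidney in turn kept the log2 fold change between 0.80 and 0.93.

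Igf1, the growth factor that growth hormone induces and that many tissues also make locally, lies on chromosome 10 (mm9, 87321010 to 87399792, plus strand). Control kidneys had 137, 131 and 106 CPM of Igf1. The FeD kidneys had 20.4, 25.1 and 32.6 CPM, so the highest FeD kidney stood far below the lowest control kidney. The mean fell from 125 ± 16.6 to 26.0 ± 6.15 CPM (SD, n = 3 each), or by 2.25 on the log2 scale with an SE of 0.17 (adjusted P = 5.9e-05). Its 95% interval ran from -2.64 to -1.86, the largest drop among the 10 genes. The growth hormone receptor and Igf1 thus moved in opposite directions, in every FeD kidney.

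The receptor gene Igf1r (mm9, chromosome 7, 75097713 to 75371484, plus strand) encodes the tyrosine kinase that binds IGF1. It had 237, 232 and 231 CPM in control and 348, 367 and 352 CPM in FeD kidneys. Insr, its close relative for insulin (mm9, chromosome 8, 3150922 to 3279617, minus strand), had 151, 149 and 141 CPM in control and 231, 245 and 238 CPM in FeD kidneys. Both receptors rose in all 3 FeD kidneys with little spread. The log2 fold change was 0.61 for Igf1r (SE 0.06, adjusted P = 0.00019) and 0.70 for Insr (SE 0.06, adjusted P = 0.00010). Per kilobase of exon, Igf1r was 3.43 ± 0.10 times as abundant as Insr in control kidneys and 3.23 ± 0.03 times in FeD kidneys (SD, n = 3 each). The size of the ratio depends on the annotated exon lengths, 4476 bases for Igf1r and 9669 for Insr, while its relative change does not. That ratio was lower in each FeD kidney than in each control kidney, with an exact two-sided permutation P of 0.10, the smallest that 3 kidneys against 3 can give.

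**Figure D2:**
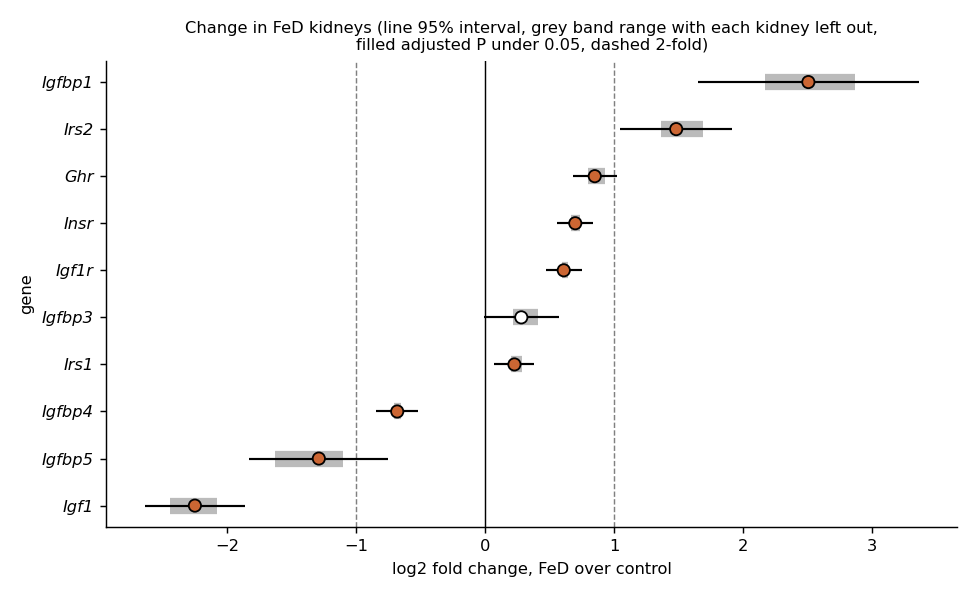
Log2 fold change of each gene, FeD over control, with its 95% interval (line) and the range of the estimate when each kidney was left out (grey band). Filled points passed an adjusted P of 0.05; Igfbp1 at 2.50 and Igf1 at -2.25 are the outermost, and Igfbp3 is the only open point.

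Among the binding proteins Igfbp1 rose the most. Its product is a small secreted IGF carrier whose gene is known to be induced in fasting and hypoxia and repressed by insulin. Igfbp1 lies on chromosome 11 (mm9, 7097785 to 7102549, plus strand), next to Igfbp3 (7106089 to 7113926, minus strand). Control kidneys had 11.8, 14.2 and 11.3 CPM of Igfbp1, from 220 to 229 raw counts each. In FeD kidneys the level was 77.7, 102 and 32.3 CPM. All 3 FeD kidneys were above all control kidneys, but kidney 3 had less than the other 2, and the FeD coefficient of variation was 50% against 12.5% in controls. The log2 fold change was 2.50 (SE 0.37, 95% interval 1.65 to 3.36, adjusted P = 0.0011). It was 2.87 without FeD kidney 3 and 2.17 without FeD kidney 2.

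The promoter of Igfbp1 is shown because insulin is known to act on this gene through a FOXO-binding element just before its start. The stretch is from RefSeq's promoter table of GRCm38.p6, a different build from the counts, and lies at chr11:7197659-7197705 on the plus strand, from 128 to 82 bases before the start site. Capitals mark the 7 letters CAAAACA of the insulin response element.
Igfbp1: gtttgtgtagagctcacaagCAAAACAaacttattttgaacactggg
On either strand, CAAAACA was found in 6.28% of the 32851 promoter windows in that table, which run from 250 bases before a start site to 50 after it. Among the 10 windows of 9 of the genes (Ghr has 2, and Insr was not matched), it occurred in those of Igfbp1, Irs1 and Irs2. A match of letters is a description of the window and does not show a bound site.

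Igfbp3 encodes the main IGF carrier of plasma. Its levels were 322, 399 and 337 CPM in control and 468, 461 and 355 CPM in FeD kidneys. FeD kidneys 1 and 2 were above all controls and FeD kidney 3 lay among them. The log2 fold change of 0.28 (SE 0.13) had a 95% interval of -0.01 to 0.57 and did not pass (adjusted P = 0.10). Without FeD kidney 3 it was 0.41 and passed (adjusted P = 0.0071). The ratio of Igfbp3 to Igfbp1 per kilobase went from 13.9 ± 0.66 in control to 3.50 ± 1.65 in FeD kidneys (exact two-sided permutation P = 0.10, the smallest possible).

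Igfbp4 encodes a carrier that mainly restrains IGF until PAPP-A cleaves it (mm9, chromosome 11, 98902558 to 98913969, plus strand). Control kidneys had 801, 819 and 860 CPM and FeD kidneys had 533, 508 and 503 CPM of Igfbp4. The groups were far apart, each with a coefficient of variation under 4%, and Igfbp4 had a log2 fold change of -0.68 (SE 0.07, adjusted P = 0.00022). Igfbp5, a matrix-bound carrier (mm9, chromosome 1, 72904506 to 72921458, minus strand), had 1562, 1483 and 1854 CPM in control kidneys. FeD kidneys 1 and 2 had 539 and 505 CPM, and FeD kidney 3 had 958 CPM, the nearest to the controls. Igfbp5 fell by 1.29 on the log2 scale (SE 0.23, 95% interval -1.83 to -0.75, adjusted P = 0.0029), and by 1.63 when FeD kidney 3 was left out.

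Divided by exon length, the 4 binding proteins together stood at 743 ± 40.4 CPM per kilobase in control and 512 ± 4.51 in FeD kidneys (SD, n = 3 each). Igfbp7, which is not among these 4, stood higher than their sum, at 1143 CPM per kilobase in control and 829 in FeD kidneys. The shares below are therefore shares of these 4 genes and not of all carriers. Igfbp4 was the most abundant of the 4 in every kidney. The Igfbp4 share of the sum was 47.1 ± 0.84% in control and 42.6 ± 1.01% in FeD kidneys. The Igfbp5 share went from 36.5 ± 2.70% to 21.7 ± 8.43%, and in FeD kidneys 1, 2 and 3 it was 17.4%, 16.4% and 31.5%. Igfbp3 took 15.2 ± 1.99% of the sum in control and 26.7 ± 3.75% in FeD kidneys, and in FeD kidneys 1 and 2 it exceeded the share of Igfbp5. Igfbp1 went from 1.10 ± 0.17% to 9.02 ± 4.48%. These shares are a description of transcripts and not of protein. They depend on the annotated exon length: without division by length the Igfbp4 share was 1.49 percentage points higher in FeD than in control kidneys.

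**Figure D3:**
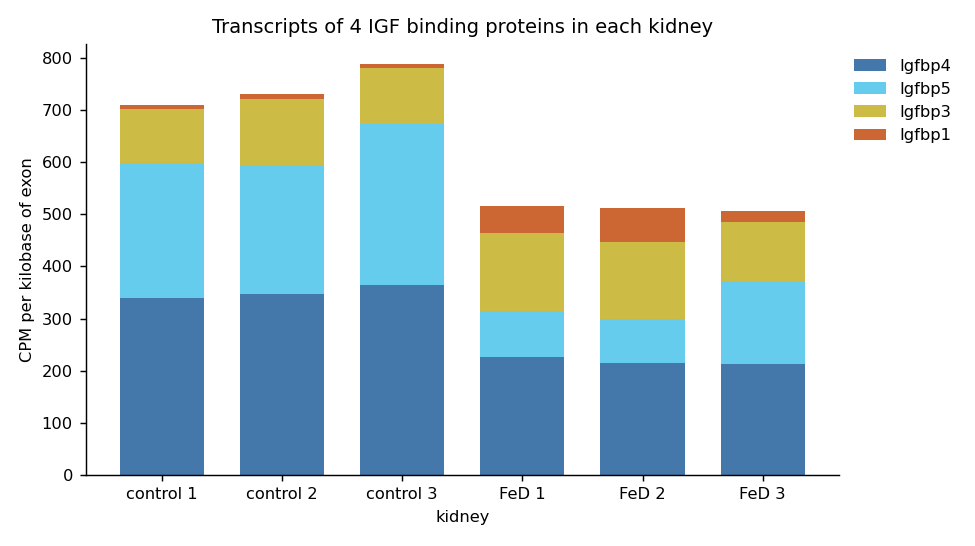
Stacked levels of Igfbp4, Igfbp5, Igfbp3 and Igfbp1 in each kidney, in CPM per kilobase of exon. Bars of FeD kidneys reach 507 to 516, below the control bars at 710 to 788, with a larger Igfbp1 part in FeD kidneys 1 and 2 than in kidney 3.

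Irs1 and Irs2 encode the adaptors that insulin and IGF1 receptors phosphorylate, and FOXO factors are known to induce Irs2. Irs2 (mm9, chromosome 8, 10986980 to 11008458, minus strand) had 13.6, 16.9 and 13.6 CPM in control kidneys. The FeD kidneys had 48.2, 45.4 and 29.3 CPM, all above the controls. Its log2 fold change was 1.48 (SE 0.19, 95% interval 1.04 to 1.92, adjusted P = 0.00057). An annotated gene on the opposite strand, 9530052E02Rik, covers 4.03% of its exon bases.

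Irs1 (mm9, chromosome 1, 82229676 to 82287991, minus strand) had 68.3, 64.6 and 66.3 CPM in control and 82.2, 78.6 and 72.2 CPM in FeD kidneys. These groups did not overlap but were close, and the rise was 1.17-fold (log2 fold change 0.23, SE 0.07, adjusted P = 0.026). The call for Irs1 was lost when any of control kidneys 1, 2 and 3 or FeD kidney 1 was left out, with adjusted P values of 0.066, 0.12, 0.086 and 0.053. Gm9747 on the opposite strand overlaps 30.9% of its exon bases, and the strand setting of the counts is not given in the sources used here. Per kilobase, Irs2 was 0.504 ± 0.08 times as abundant as Irs1 in control kidneys and 1.19 ± 0.23 times in FeD kidneys. Which of the pair is the more abundant depends on the annotated exon lengths, 4024 bases for Irs2 and 9144 for Irs1. The annotation used for counting is not given in the sources used here, and the relative change of the ratio does not depend on length. The ratio was 0.454, 0.593 and 0.464 in control and 1.33, 1.31 and 0.924 in FeD kidneys, without overlap (exact two-sided permutation P = 0.10, the smallest possible).

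The promoters of this pair are shown because they hold the same letters although the genes differed in how much they changed. Both come from RefSeq's table of GRCm38.p6, are on the minus strand and are printed 5′ to 3′ as the gene reads. Irs1 is taken from chr1:82291445-82291574, from 135 to 6 bases before the start site, and Irs2 from chr8:11008940-11008993, from 64 to 11 bases before it. Capitals mark CACGTG, an E-box, and TGTTTTG, the reverse complement of CAAAACA.
Irs1: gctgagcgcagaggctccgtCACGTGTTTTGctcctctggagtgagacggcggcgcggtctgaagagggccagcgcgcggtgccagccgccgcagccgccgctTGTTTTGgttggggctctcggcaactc
Irs2: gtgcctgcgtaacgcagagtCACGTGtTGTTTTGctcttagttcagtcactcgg
In Irs1 the first pair of matches overlaps and a second TGTTTTG follows, while in Irs2 they are 1 base apart. CACGTG was in 7.15% of all windows, and both motifs together were in 134 of the 32851 windows (0.408%). The shorter core ACGTG, to which hypoxia-inducible factors bind, is part of this E-box and was in 19.6% of all windows. None of the genes' windows held GTAAACA, the FOXO consensus (3.65% of all windows), or TTCNNNGAA, the STAT form (8.30%).

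FeD kidneys did not change to the same degree in every gene. For Ghr, Igf1r, Insr and Igfbp4 the 3 FeD kidneys lay within 0.03 to 0.08 of each other on the log2 scale. For Igfbp1 they spread over 1.66, for Igfbp5 over 0.92, for Irs2 over 0.71 and for Igf1 over 0.68. FeD kidney 3 was the nearest to the control mean in 7 of the 10 genes, among them all 4 genes called at 2-fold. The 7 also hold Igfbp3, which was not called, and Ghr, whose FeD kidneys lay within 0.03 of each other. Over the 1519 genes called at 2-fold in either direction, FeD kidney 3 was the nearest in 40.1%. That was 48.9% of the higher and 33.4% of the lower genes. Over the 6924 genes called at the adjusted P alone, FeD kidney 3 was the nearest in 36.6% and FeD kidney 1 in 38.2%. These shares cover called genes only, measured in the direction of the call, and no share over all tested genes was taken. FeD kidney 3 is also the FeD kidney with high Xist.

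**Figure D4:**
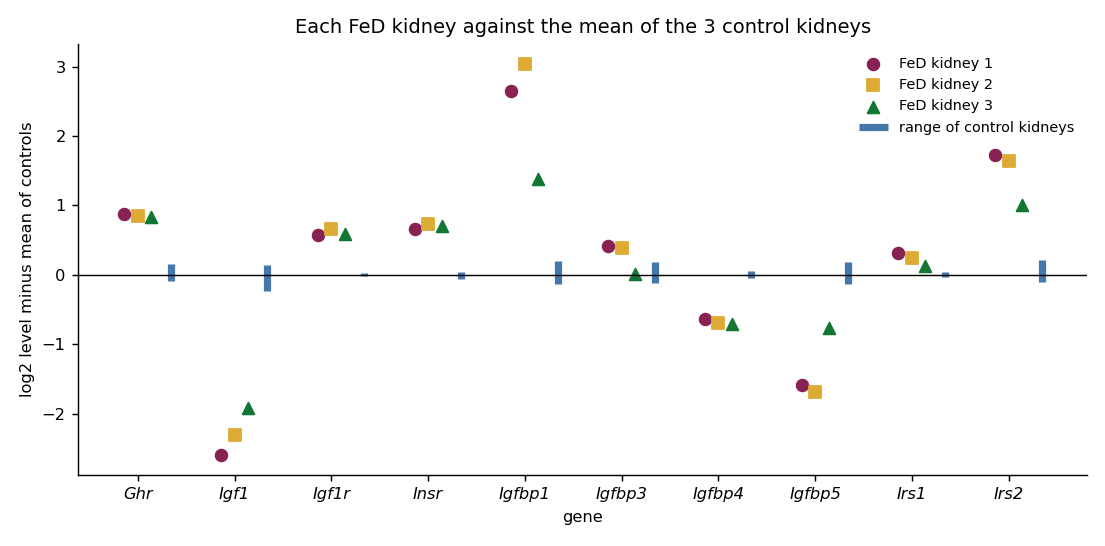
Log2 level of each FeD kidney minus the mean of the control kidneys, with the range of the 3 control kidneys as a bar. The 3 FeD kidneys coincide for Ghr, Igf1r, Insr and Igfbp4, and kidney 3 lies nearest to 0 for Igf1, Igfbp1, Igfbp5 and Irs2.

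Values within kidneys of like Xist level were compared without a test, because each comparison has 1 kidney on a side. Among high-Xist kidneys (control kidneys 1 and 2, FeD kidney 3) the log2 ratio of FeD to control was -2.04 for Igf1 and 1.31 for Igfbp1. It was -0.67 for Igfbp5 and 0.94 for Irs2 there. Among low-Xist kidneys (control kidney 3, FeD kidneys 1 and 2) the log2 ratio was -2.22 for Igf1, 2.99 for Igfbp1, -1.83 for Igfbp5 and 1.79 for Irs2. Direction was shared between both comparisons in 9 of the 10 genes. Igfbp3 was the exception, at -0.02 and 0.46. With the Xist level as a covariate in edgeR, the same 4 genes, Igf1, Igfbp1, Igfbp5 and Irs2, passed the 2-fold threshold. They also did so without the adrenal-rich control kidney 1 and FeD kidney 2, a fit in which Irs1 lost its call (adjusted P = 0.099).

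The other genes of the pathway were taken from a list of 75 genes, of which 73 were tested. At an adjusted P of 0.05, 31 were higher, 17 were lower and 25 did not pass, which is 65.8% of the list against 45.7% of all tested genes. The background was 22.4% for higher and 23.3% for lower genes, so the count of lower genes was near the background. Without control kidney 3, control kidney 2 or FeD kidney 2, lower calls over all genes fell from 3527 to 2623, 2618 and 3190. The lower genes of the list numbered 8, 11 and 10 in those fits. At 2-fold, 7 were higher (Socs2, Socs3, Pappa, Pappa2, Trib3, Ddit4 and Pdk4) and 5 were lower (Socs1, Igfbp2, Igfals, Htra1 and Gys2); 3 were lower at 2-fold without control kidney 2. Together they make 16.4% of the list, against 10% of all tested genes, where 4.34% were higher and 5.69% lower, so the lower genes at 2-fold were also near the background. The median log2 fold change of the list was 0.17, and that of all tested genes was 0.00.

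**Figure D5:**
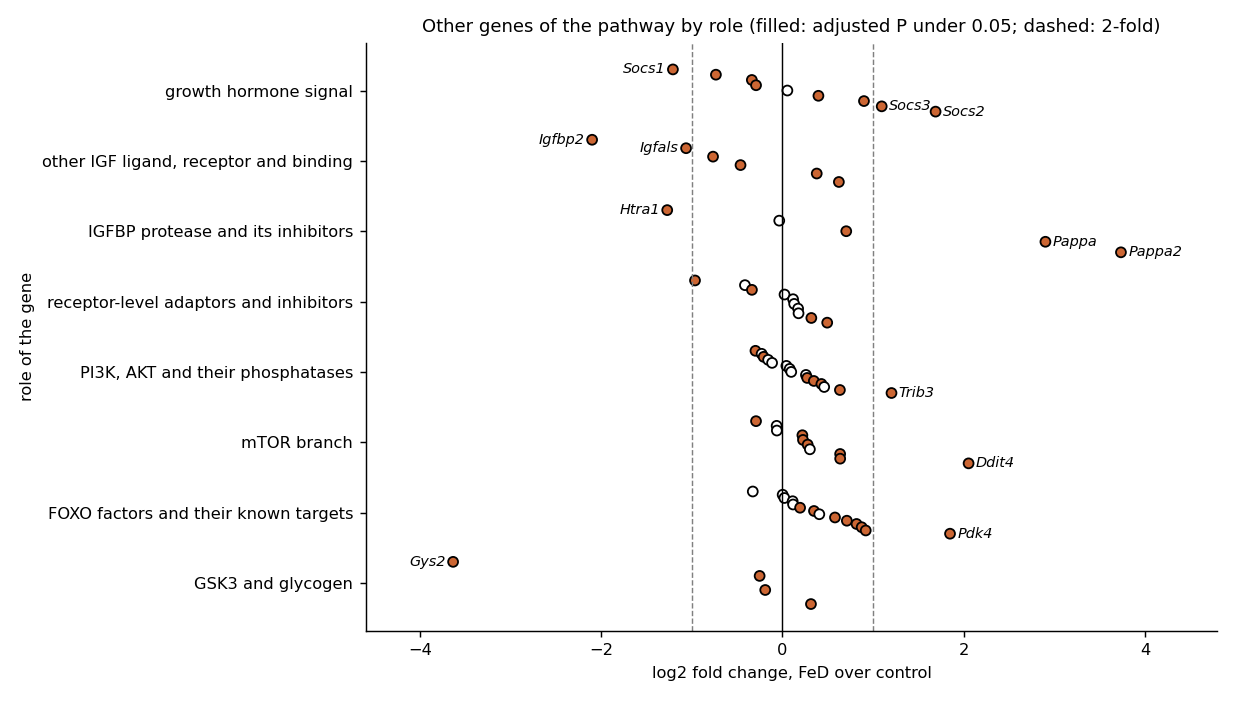
Log2 fold change, FeD over control, of the 73 tested pathway genes, grouped by role. Filled points passed an adjusted P of 0.05, and names mark the 12 genes called at 2-fold, from Gys2 at -3.64 to Pappa2 at 3.74.

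Around growth hormone signaling, 4 of 9 genes were higher and 4 lower (88.9% called, against 45.7% of all tested genes). Jak2, the kinase bound to the receptor, rose from 46.4 ± 1.74 to 86.6 ± 3.08 CPM (SD, n = 3; log2 fold change 0.90, adjusted P = 4.8e-05). Stat5b was not called (log2 fold change 0.05, adjusted P = 0.65), and Stat5a fell by 0.34 on the log2 scale (adjusted P = 0.019), a call lost without control kidney 3 or FeD kidney 2 (adjusted P up to 0.070). Socs2, a feedback inhibitor that growth hormone is known to induce, had 29.4, 19.1 and 13.9 CPM in control and 82.1, 67.5 and 51.7 CPM in FeD kidneys. Socs2 thus rose 3.23-fold without overlap (adjusted P = 0.0015), while Igf1, also a growth hormone target, fell. Another such target, Cish, rose 1.32-fold (adjusted P = 0.0096); 11.5% of its exon bases overlap genes on the opposite strand. Socs3, a feedback inhibitor of cytokine receptors, rose 2.14-fold (adjusted P = 0.0016). Socs1 had at most 30 raw counts in a kidney, and its call (adjusted P = 0.046) was absent under DESeq2 (adjusted P = 0.10) and when any kidney but FeD kidney 1 was left out (edgeR adjusted P up to 0.13).

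Every tested gene in the group of other IGF ligands, receptors and carriers passed, 2 higher and 4 lower. Of all tested genes 45.7% passed, 22.4% higher and 23.3% lower. Igfals, the subunit that holds IGF and IGFBP3 in a large plasma complex, fell 2.09-fold, from 17.1 ± 1.40 to 8.22 ± 2.02 CPM (adjusted P = 0.0022). Igfbp2 had 31.1, 26.3 and 41.5 CPM in control and 4.37, 3.05 and 14.9 CPM in FeD kidneys, with kidney 3 again the nearest to the controls (log2 fold change -2.10, SE 0.48, adjusted P = 0.0085). Without FeD kidney 3 the log2 fold change of Igfbp2 was -3.12. Igfbp6 fell by 0.77 on the log2 scale (adjusted P = 0.0073), and so did Igfbp7, by 0.46 (adjusted P = 0.017), the latter call being lost without control kidney 3 or FeD kidney 1 (adjusted P up to 0.073). Igfbp1 was therefore the only binding protein gene of the 7 tested that rose past the threshold. The fetal growth factor Igf2 was low, at 14.8 ± 1.84 CPM in control and 22.8 ± 6.42 in FeD kidneys (adjusted P = 0.036, up to 0.12 when any kidney but FeD kidney 3 was left out). Igf2r, which clears IGF2, rose 1.30-fold (adjusted P = 0.0057).

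Of the proteases that free IGF from its carriers, Pappa and Pappa2 had larger log2 fold changes than any of the 10 genes. Pappa, which encodes the protease PAPP-A that cleaves IGFBP4, had 27.6, 24.5 and 41.3 CPM in control and 199, 155 and 345 CPM in FeD kidneys. Pappa2, whose product cleaves IGFBP5 and IGFBP3, had 2.36, 3.35 and 3.69 CPM in control and 39.2, 27.3 and 58.3 CPM in FeD kidneys. Here FeD kidney 3 had the highest level of both, the farthest from the controls. The log2 fold change was 2.90 for Pappa (SE 0.32, adjusted P = 0.00028) and 3.74 for Pappa2 (SE 0.30, adjusted P = 7.9e-05). Of the stanniocalcins, which inhibit these proteases, Stc1 rose 1.63-fold (adjusted P = 0.0017) and Stc2 was not called (log2 fold change -0.04, adjusted P = 0.85). Htra1, a serine protease that also cleaves carriers, fell 2.42-fold (adjusted P = 0.00066).

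Downstream of the receptors, among 10 tested adaptors and inhibitors, 2 rose, 2 fell and 6 did not pass (40% called, near the 45.7% of all tested genes). The insulin receptor relative Insrr fell from 66.5 ± 5.54 to 34.1 ± 5.45 CPM (log2 fold change -0.97, adjusted P = 0.00060), whereas Grb10, an inhibitor of both receptors, rose 1.41-fold (adjusted P = 0.0031). In the group of PI3 kinase, AKT and phosphatases, 5 rose, 2 fell and 8 of 15 did not pass (46.7% called, again near the background). Trib3, an AKT inhibitor induced by stress, rose 2.30-fold from a low level (adjusted P = 0.0058). Pdpk1, the kinase that activates AKT, rose by 0.43 on the log2 scale (adjusted P = 0.0022). The mTOR branch had 6 of 10 genes higher and 1 lower (70% called, against 45.7% of all tested genes, 22.4% higher and 23.3% lower). Tsc1, which restrains mTOR complex 1, and Rictor, a subunit of complex 2, each rose by 0.64 on the log2 scale (adjusted P values of 0.00023 and 0.00031). Ddit4, which encodes the mTOR inhibitor REDD1 and is induced by hypoxia, had 40.5, 38.9 and 45.4 CPM in control and 187, 182 and 150 CPM in FeD kidneys (log2 fold change 2.05, SE 0.10, adjusted P = 1.0e-05). Glycogen synthase of the liver type, Gys2, had 38 to 58 raw counts in control and 2 to 6 in FeD kidneys (log2 fold change -3.64, adjusted P = 0.00064). Without FeD kidney 2 the log2 fold change of Gys2 was -4.49, and counts this low make its size uncertain.

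FOXO factors and genes that FOXO is known to induce split into those that rose and those that did not pass, 8 and 6 of 14 (57.1% called, against 45.7% of all tested genes in either direction and 22.4% higher). Foxo3 rose 1.76-fold (adjusted P = 0.00020), and Foxo1 was at 78.3 ± 6.18 CPM in control and 79.5 ± 6.05 in FeD kidneys (adjusted P = 0.85). Pdk4, a kinase that blocks pyruvate oxidation in fasting, had 56.8, 60.6 and 56.2 CPM in control and 254, 248 and 125 CPM in FeD kidneys (log2 fold change 1.85, adjusted P = 0.00063). As in Igfbp1 and Irs2, FeD kidney 3 had the smallest rise. Klf15, Fbxo32 and Ccng2 rose 1.89-fold, 1.83-fold and 1.64-fold (adjusted P values of 0.0014, 0.00084 and 0.00057). Among the FeD kidneys, Klf15 and Ccng2 were likewise lowest in kidney 3. Fbxo32 was instead highest there, at 24.9, 24.4 and 26.3 CPM in FeD kidneys 1, 2 and 3, and Foxo3 lay between. The gluconeogenic genes Pck1 and G6pc, which insulin represses, were not called, with adjusted P values of 0.54 and 1.00, though Pck1 passed without FeD kidney 3 (adjusted P = 0.017). G6pc had 431, 464 and 431 CPM in control and 442, 662 and 224 CPM in FeD kidneys, so its FeD kidneys lay on both sides of the controls, with kidney 2 the highest and kidney 3 the lowest.

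Other tissues' markers stood as follows beside these values. Of 6 liver markers, Ttr, Serpina1a and Apoa2 were higher in FeD kidneys and the summed level was 89.8 to 96.7 CPM in control and 284 to 317 CPM in FeD kidneys, but Alb was at most 1.82 CPM in any kidney and Ahsg at most 0.654 CPM. The 4 adipose markers summed to 123 to 140 CPM in control and 26.6 to 42.7 CPM in FeD kidneys, with Plin1, Cfd and Adipoq lower. The 5 proliferation markers, all lower, summed to 112 to 128 CPM in control and 29.7 to 38.0 CPM in FeD kidneys. The part of these in the changes of Igf1 and its carriers was not tested.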

How the data were processed

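Polyadenylated RNA of 6 kidneys was sequenced as single-end reads of 100 bases. Per the labels' processing notes and the methods, the authors used CASAVA 1.8.2, Trimmomatic, TopHat2 2.0.11 (mm9) and HTSeq, and deposited raw counts per gene without normalization; annotation, counting mode and strand setting are not given in the sources used here. None of the 10 genes shared a window of 100 bases with another protein-coding gene.

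The tests ran in edgeR 4.0.16 under R 4.3.3 with filterByExpr, TMM, glmQLFit and glmQLFTest, Benjamini-Hochberg adjustment over all genes. Calls required an adjusted P under 0.05, with or without a 2-fold change (log2 fold change of at least 1). The standard error was the log2 fold change divided by the square root of F. The script was tested on simulated data. Positions and exon lengths came from GENCODE on NCBIM37 (mm9), where 20608 symbols matched a single gene. Libraries of a group differed by more than counting noise (chi-square per degree of freedom 3.77 to 30.4). The genes, gene lists and tests were chosen with earlier results of these data known. All 10 genes were named, and pathway genes where called at 2-fold or among at most 3 more per role with the smallest adjusted P; Stat5a, Stat5b, Igf2, Klf15, Foxo1, Pck1 and G6pc fall outside this rule and were chosen after their values were seen. Alternatives were DESeq2 1.42.0, other size factors, other filters, a test against 2-fold, a replicate block, and kidneys left out; the Xist covariate and the joint removal of the adrenal-rich kidneys were added after seeing the data.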

Additional observations from a re-analysis of the deposited data

How the results depend on the processing

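Over 14 alternatives, the 10 genes gave 140 log2 fold changes, of which 0 reversed, 134 kept their side of an adjusted P of 0.05, 5 (all Irs1) lost it and 1 (Igfbp3 without FeD kidney 3) gained it. Igf1, Igfbp1, Igfbp5 and Irs2 passed the 2-fold threshold in each of them. Testing against a fold change of 2 with edgeR's glmTreat left 2 of the 10 genes (Igf1 and Igfbp1), 5 of the other pathway genes and 511 of all genes; this test asks for a change beyond 2-fold and so calls fewer. Without control kidney 1 and FeD kidney 2 together, 31 other pathway genes passed the adjusted P, 24 higher and 7 lower. The same fit called 4676 of all genes, 2271 higher and 2405 lower. In the main fit, 48 other pathway genes and 6924 of all genes passed. Like-numbered kidneys came from different dams, so the numbers pair no littermates. Their deviations from the group means correlated at -0.16, 0.00 and -0.03. With 3 kidneys a group such deviations are tied together, so they cannot show whether like-numbered kidneys shared a batch. With the number as a replicate block, 4 of the 10 genes passed at 2-fold and 9 at the adjusted P. The Igfbp4 share, 4.59 percentage points lower in FeD kidneys per kilobase, was 1.49 higher without division by length, by construction of the share. Precision is limited by 3 kidneys a group more than by depth. The lowest raw count of any of the 10 genes was 220, for Igfbp1 in control kidney 1.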
